A study of Rattus norvegicus with 38 samples.

Results

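Livers of Sprague-Dawley rats given the extracts EF and PF together were compared with livers of control rats by RNA sequencing, with no injection of lipopolysaccharide (LPS) in either group. The comparison used the 5 libraries whose treatment label is gavage of EF with PF and the 5 libraries whose label is control, 10 of the 38 libraries in the series, and all genes that passed a filter on low counts. EF and PF were each given intragastrically at 2.5 g/kg, and the livers were collected on day 28. The sources used here do not say what the control rats were given, the sex and age of the animals, or which extracts the letters EF, PF and RD stand for. PF was given only together with EF, so its own effect was not measured. For reference, 4 further groups are cited: EF alone (2.5 g/kg, n = 5), EF with RD (200 mg/kg, n = 4), LPS into the abdominal cavity without extract (n = 5), and LPS with EF and PF (n = 4). All animals are of the same outbred strain, and all libraries carry the same batch label. The libraries are named here by the number in their titles.

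The liver takes up compounds that arrive from the gut and converts them with cytochrome P450 enzymes. The aryl hydrocarbon receptor (AhR) is a transcription factor that binds planar aromatic compounds, many of them from plants, and switches on Cyp1a1 and Cyp1a2. The liver is also the main site of cholesterol synthesis, which the transcription factor SREBP2, the product of Srebf2, turns on when sterols in the membrane of the endoplasmic reticulum run low, and it is where cholesterol is turned into bile acids.

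Counted read pairs numbered 21563143 to 27076278 per library in the control group and 22287849 to 25422925 in the EF plus PF group. The labels name hepatocytes, but the RNA held markers of other liver cells as well, and hepatocyte markers summed to 200000 to 241000 CPM (read pairs scaled to a common library size) in control and 196000 to 228000 CPM with EF plus PF. The library control 5 stood apart. Its 19 exocrine pancreas markers summed to 3890 CPM, against 9.69 to 15.2 CPM in the other 4 control libraries and 14.1 to 22.7 CPM with EF plus PF. Cholangiocyte markers in control 5 summed to 146 CPM, against 36.7 to 43.5 CPM in the other 9 libraries, and erythroid markers summed to 340 CPM, against 43.7 to 160 CPM. On the first principal component of log2 CPM, which held 25.3% of the variance, control 5 lay at 70.1 and the other 9 libraries between -25.9 and 12.3. The second component (15.2%) placed the other 4 control libraries between 9.81 and 29.1, control 5 at -5.95, and the 5 EF plus PF libraries between -29.8 and -5.76. All 10 pancreas markers that passed the filter were lower with EF plus PF, with a median log2 fold change of -6.87. None of the 10 was called by edgeR, though all had an unadjusted p under 0.05. Without control 5, 8 of them were tested, 7 lay above 0 and the median was 1.54. For the genes and lists named, the value without control 5 is given where the call differed.

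**Figure D1:**
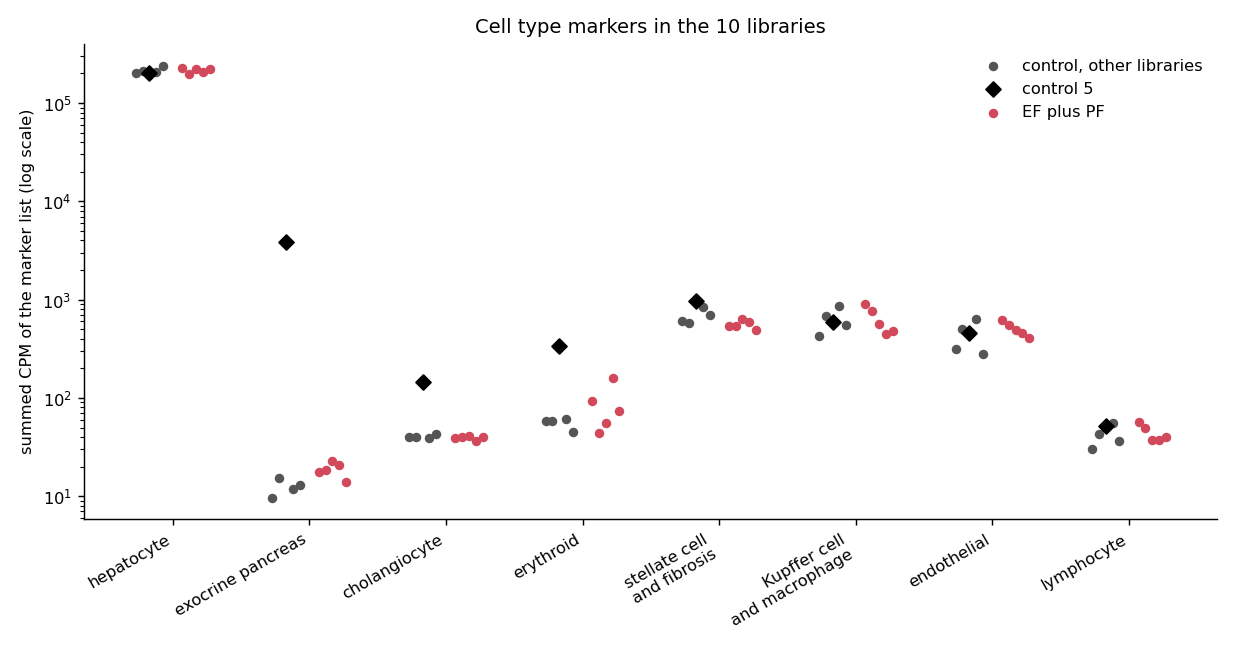
Summed CPM of 8 lists of cell type markers (log scale) in the 5 control and 5 EF plus PF libraries, 1 point per library. Control 5 (diamond) lies at 3890 CPM for exocrine pancreas markers, above the 9.69 to 22.7 CPM of the other 9 libraries, and also above them for cholangiocyte and erythroid markers.

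Few genes were called between EF plus PF and control, and most of the called genes were higher. Of 14786 genes tested, 92 (0.622%) were called with edgeR's quasi-likelihood test at a Benjamini-Hochberg adjusted p under 0.05. Of these, 66 (0.446% of the genes tested) were higher and 26 (0.176%) were lower. In the same test 1855 genes had an unadjusted p under 0.05. The count depends on the method: DESeq2 called 246 genes, 133 higher and 113 lower. The called rises were also larger: 25 of the 66 were at least 2-fold, against 4 of the 26 falls. The median log2 fold change of all genes was -0.0187. In 83 of the 92 called genes the lowest library of the higher group lay above the highest library of the lower group, which held for 3.6% of all genes tested. Without control 5, 85 genes were called, 53 higher and 32 lower, and 65 of the 92 were among them. The count was more sensitive to other libraries, falling to 43 without control 4 and to 39 without EF plus PF 5.

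**Figure D2:**
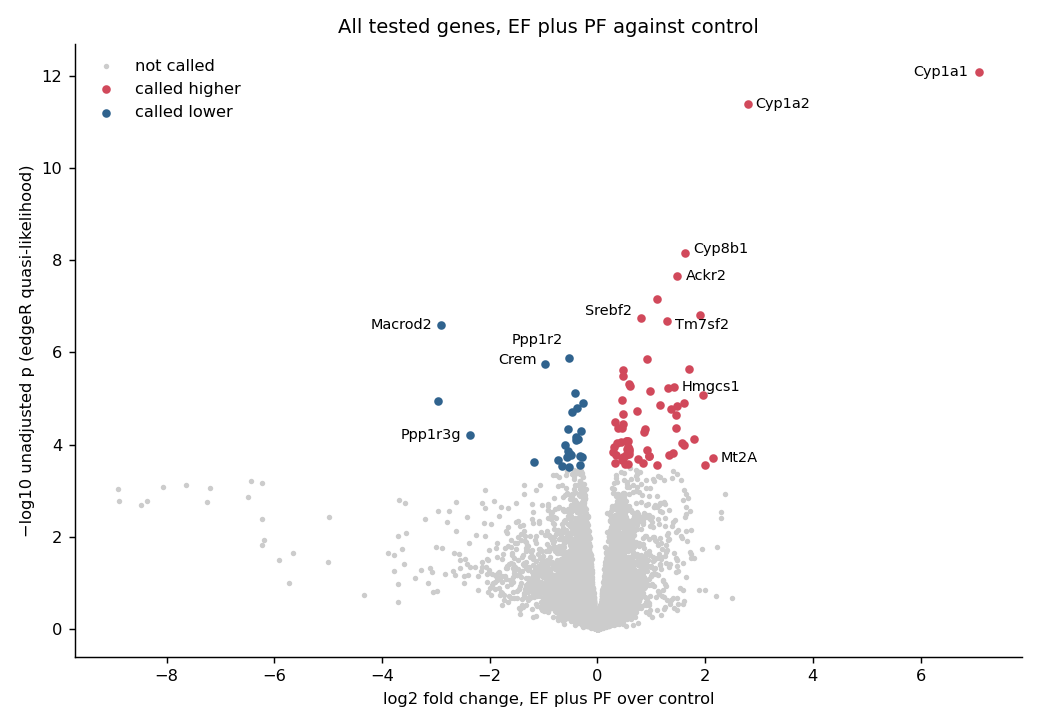
Log2 fold change of each of the 14786 tested genes, EF plus PF over control (x axis), against -log10 of the unadjusted p from edgeR's quasi-likelihood test (y axis). Cyp1a1 and Cyp1a2 stand above all other genes, 66 genes were called higher (red) and 26 lower (blue), and the grey points at the far left with a log2 fold change under -5 were not called.

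The gene with the largest rise was Cyp1a1 (chr8:62472087-62478122, rn6), a P450 enzyme that oxidises aromatic compounds and is the classic target of AhR. Cyp1a1 was at 1.58, 0.652, 1.58, 0.330 and 0.565 CPM in control 3 to 7, and 75.1, 55.7, 213, 178 and 111 CPM in EF plus PF 1, 2, 3, 5 and 6. Every EF plus PF library lay above every control library, and the EF plus PF libraries varied widely among themselves. The means were 0.942 ± 0.596 and 127 ± 67.2 CPM (SD, n = 5 each), a log2 fold change of 7.09 ± 0.635 (SE), 136-fold, with an adjusted p of 1.22e-08. Its neighbour Cyp1a2 (chr8:62451360-62458244, rn6), which the liver makes without an inducer and which oxidises caffeine and aromatic amines, was at 315 to 470 CPM in control and 2135 to 3335 CPM with EF plus PF. The library highest for Cyp1a1, EF plus PF 3, was also the highest for Cyp1a2. The log2 fold change of Cyp1a2 was 2.79 ± 0.265 (SE), 6.9-fold, with an adjusted p of 3.08e-08. Per transcript length, Cyp1a1 did not reach Cyp1a2 even so: the authors' deposited values averaged 86.1 ± 44.2 TPM (transcript levels scaled for length and depth) for Cyp1a1 and 2490 ± 463 TPM for Cyp1a2 with EF plus PF (SD, n = 5). Both calls held in each of the 19 alternative analyses, control 5 left out included.

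The rise of Cyp1a1 was larger with EF plus PF than with the other extracts. With EF alone Cyp1a1 was at 6.78, 2.62, 1.72, 1.30 and 2.16 CPM, and with EF plus RD at 4.97, 2.76, 8.58 and 3.98 CPM. Neither group reached the lowest EF plus PF library, 55.7 CPM. EF plus PF exceeded EF by a log2 fold change of 5.45 ± 0.568 (SE; adjusted p = 6.07e-07) and EF plus RD by 4.64 ± 0.595 (adjusted p = 7.44e-05), and both held in every alternative run. Cyp1a2 was at 815 to 1841 CPM with EF alone, below all EF plus PF libraries, but its log2 fold change of 1.10 ± 0.251 between EF plus PF and EF was not called (adjusted p = 0.0636). Against EF plus RD, Cyp1a2 was higher by 1.38 ± 0.273 (adjusted p = 0.0104). Without EF plus RD 1, a library in which skeletal muscle markers summed to 5200 CPM, the log2 fold change was 1.42 but was not called (adjusted p = 0.113).

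The rise of Cyp1a1 recurred in other animals, those injected with LPS. Cyp1a1 was at 0.317 to 1.13 CPM with LPS and at 39.5, 41.1, 39.1 and 78.1 CPM with LPS, EF and PF. The log2 fold change was 6.36 ± 0.644 (SE; adjusted p = 2.94e-07). Cyp1a2 rose there by 1.65 ± 0.265 (adjusted p = 0.00227). The test of the difference between the responses with and without LPS gave -0.73 ± 0.892 for Cyp1a1 (adjusted p = 0.989) and -1.14 ± 0.365 for Cyp1a2 (adjusted p = 0.600).

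The other AhR genes did not pass the test in the fit of all libraries. Of 8 tested members of the AhR list, only Cyp1a1 and Cyp1a2 were called, and the median log2 fold change of the list was 0.738. A fit of the 10 libraries alone called 3 members higher, and 2 without control 5. The receptor Ahr itself was at 20.2 to 60.6 CPM in control and 61.2 to 97.6 CPM with EF plus PF, without overlap, with a log2 fold change of 0.91 (adjusted p = 0.0801). Nqo1, a quinone reductase controlled by AhR and by the stress factor Nrf2, was at 23.5 to 41.8 and 39.9 to 80.9 CPM (log2 fold change 1.04, adjusted p = 0.117). Tiparp, which dampens AhR, had levels of 16.1 to 20.9 CPM in control and 13.9 to 19.3 CPM with EF plus PF. Cyp1b1, the third P450 of the family, was below 2 CPM in every library of both groups, and Ahrr, the AhR repressor, was below 0.1 CPM.

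**Figure D3:**
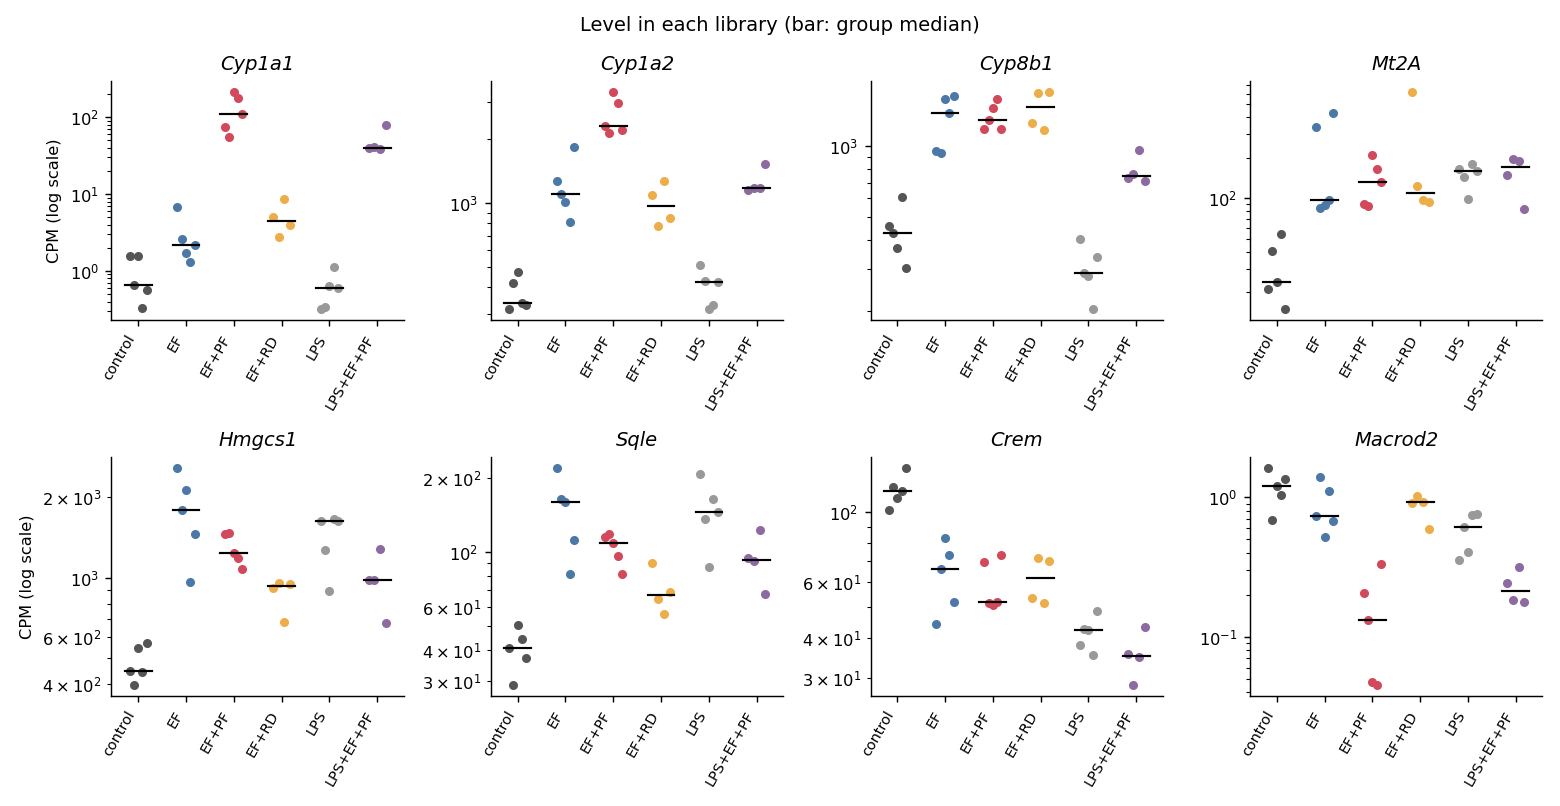
CPM of 8 genes (log scale, a separate axis for each gene) in every library of 6 groups, with a bar at the group median. EF plus PF libraries lie apart from EF and EF plus RD for Cyp1a1 and Macrod2, whereas for Cyp8b1 and Crem the groups without LPS that received an extract overlap each other and lie apart from control.

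Other enzymes of foreign compound metabolism moved less. Fmo1, a flavin-containing monooxygenase, rose from 54.3 to 119 CPM in control to 158 to 335 CPM with EF plus PF (log2 fold change 1.60 ± 0.313 SE, adjusted p = 0.00724). Ugt1a5, a glucuronosyl transferase, rose from 23.9 to 45.6 CPM to 50.1 to 102 CPM (adjusted p = 0.00752). Ugt1a5 shares most of its transcript with the other genes of the Ugt1a locus, so its count is uncertain. It falls outside the rule for named genes and is not a member of the list of conjugating enzymes below. The edgeR test called none of the 24 tested targets of the drug receptors CAR and PXR (median 0.277, 9 with an unadjusted p under 0.05), none of 29 Nrf2 genes (median 0.152, 11 such genes) and none of 32 conjugating enzymes (median 0.139, 6 such genes). Without control 5 it called 2 CAR and PXR targets, 1 Nrf2 gene and 1 conjugating enzyme, all higher. A fit of the 10 libraries alone called 1 CAR and PXR target and 1 Nrf2 gene, both higher. With control 5 left out, that fit called 3 CAR and PXR targets, all higher, and no Nrf2 gene or conjugating enzyme. Cyp2b1, the classic CAR target, was at 0.605 to 6.59 CPM in control and 4.91 to 22.2 CPM with EF plus PF (log2 fold change 2.29, adjusted p = 0.125), and the groups overlapped. Control 5 was the highest control library for Gsta3, a glutathione transferase (15.4 CPM, against 2.88 to 12.9 CPM in the other 4), for Aldh1a1, which makes retinoic acid (80.4 against 8.78 to 34.2 CPM), and for Rhbg, an ammonium transporter of hepatocytes around the central vein (11.9 against 1.82 to 3.53 CPM), genes chosen after their values were seen. With EF plus PF the levels were 12.6 to 37.2 CPM for Gsta3, 75.3 to 157 CPM for Aldh1a1 and 4.56 to 15.1 CPM for Rhbg. None of these was called with all libraries, with adjusted p of 0.0835, 0.117 and 0.164. All were called without control 5, with log2 fold changes of 2.07 for Gsta3 (adjusted p = 0.0298), 2.37 for Aldh1a1 (0.0141) and 1.73 for Rhbg (0.00493).

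Of 22 genes of cholesterol synthesis tested, 10 were called higher and none lower, 21 had a log2 fold change above 0, and the median was 0.94, against -0.0187 for all genes. The rise of this list was not particular to EF plus PF. For EF alone against control, 16 were called higher, 22 lay above 0 and the median was 1.13. For EF plus RD against control these values were 1, 19 and 0.361. Direct tests of EF plus PF against EF and against EF plus RD called none of the 22, with medians of -0.231 and 0.517. In the mevalonate part of the pathway 5 of 9 were called, among them Acat2, the thiolase of the first step, Hmgcs1, which makes HMG-CoA, and the later enzymes Pmvk and Mvd. In the sterol part 5 of 13 were called, among them Sqle, which adds the oxygen that precedes ring closure, Tm7sf2, Msmo1 and Dhcr7. Hmgcs1 was at 447, 397, 548, 443 and 568 CPM in control 3 to 7 and at 1452, 1473, 1237, 1186 and 1076 CPM in EF plus PF 1, 2, 3, 5 and 6. The EF plus PF libraries lay above all control libraries. The log2 fold change of Hmgcs1 was 1.42 ± 0.263 (SE), 2.67-fold, with an adjusted p of 0.00467.

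Tm7sf2, a sterol reductase, was at 66.7 to 106 CPM in control and 171 to 257 CPM with EF plus PF, without overlap. It rose by 1.28 ± 0.197 (SE) on the log2 scale (adjusted p = 0.000379), Mvd by 1.48 ± 0.291 (0.00752), Msmo1 by 1.45 ± 0.294 (0.00985) and Sqle by 1.37 ± 0.272 (0.00839). Without control 5, 8 of the 22 were called, with a median of 0.974, and Dhcr7, at a log2 fold change of 0.97 against 0.96 with all libraries, missed the threshold (adjusted p = 0.0604). Members not called included Idi1 at 1.13 (adjusted p = 0.0596), Fdft1 at 0.79 (0.0568), Cyp51 at 0.89 (0.0657) and Lss at 1.18 (0.110). The 1 member below 0 was Ggps1, at -0.15, which makes a precursor for protein prenylation and not a sterol.

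Of 21 genes of cholesterol uptake and its control, 2 were called, both higher, and the median was 0.17. Srebf2 was at 39.5 to 56.1 CPM in control and 75.0 to 87.1 CPM with EF plus PF, a rise of 0.80 ± 0.122 on the log2 scale (adjusted p = 0.000378). Scap, the escort that carries SREBP2 out of the endoplasmic reticulum, rose by 0.45 ± 0.0959 (adjusted p = 0.0165). Insig1, which retains the complex of Scap and SREBP2, overlapped between the groups at 285 to 641 CPM in control and 378 to 717 CPM with EF plus PF.

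In lipogenesis 2 of 26 genes were called, both of which activate small acids to CoA esters: Aacs, acetoacetyl-CoA synthetase, rose from 4.52 to 9.93 CPM to 20.2 to 31.5 CPM (log2 fold change 1.79 ± 0.398 SE, adjusted p = 0.0244), and Acss2, acetyl-CoA synthetase, rose by 1.11 ± 0.273 (adjusted p = 0.0457, and 0.0667 without control 5). The Acss2 call was lost in 11 of 19 alternatives and the Aacs call in 4. The median of the list was 0.156, and Scd, the stearoyl-CoA desaturase, was at -1.60 with an adjusted p of 0.256. None of 38 genes of fatty acid oxidation was called by edgeR (median 0.0202, 2 with an unadjusted p under 0.05).

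**Figure D4:**
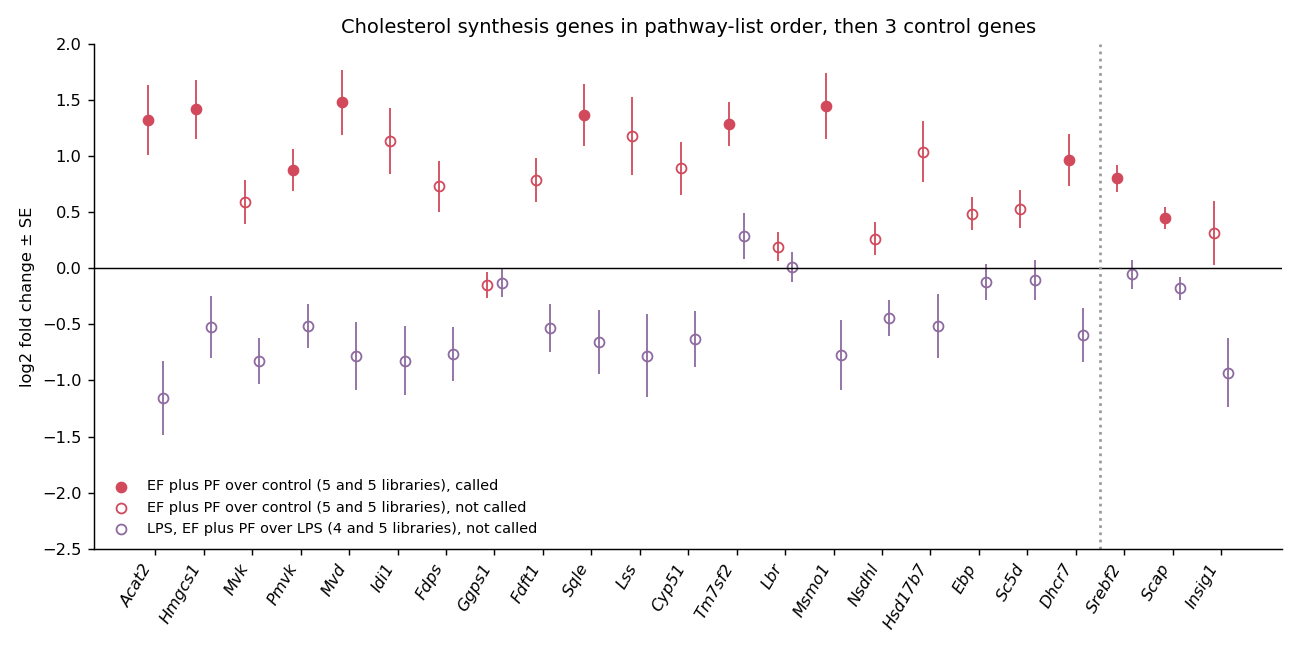
Log2 fold change with its SE (y axis) of 20 cholesterol synthesis genes and, right of the dotted line, 3 genes of their control, for EF plus PF over control (red) and for LPS with EF and PF over LPS (purple). Filled points were called: 8 of the 20 synthesis genes were called without LPS, where 19 lie above 0, and none with LPS, where 18 lie below 0.

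With LPS the cholesterol genes gave other values. Between LPS with EF and PF and LPS alone, groups that share no library with the comparison without LPS, 6 genes (0.0406%) were called, none of them in the cholesterol synthesis list, whose median was -0.529 with 20 of 22 members below 0. The difference between the responses with and without LPS was tested directly. Of 14786 genes, 12 (0.0812%) were called and each had a lower response with LPS, among them Mvd, Msmo1, Mmab, Sqle, Pmvk, Hmgcs1, Acat2, Mvk, Acat2l1, LOC102550763 and Srebf2. Hmgcs1 was at 894 to 1651 CPM with LPS and 677 to 1277 CPM with LPS, EF and PF, and the difference of its log2 responses was -1.95 ± 0.382 (SE, adjusted p = 0.0257). For Srebf2 the difference was -0.86 ± 0.178 (adjusted p = 0.0379). LPS by itself was accompanied by higher Hmgcs1 (log2 fold change 1.56 against control, adjusted p = 4.43e-05), in a comparison in which 36.8% of all genes were called and which shares the control libraries. The difference calls were fragile. In the test of the difference 719 of the 14786 genes had an unadjusted p under 0.05, against 1855 for EF plus PF against control. No gene was called with a replicate block, or when control 4, control 6, EF plus PF 1, LPS 1, LPS 4 or LPS with EF and PF 1, 3 or 6 was left out, and 25 were called without LPS 3. In LPS 3 exocrine pancreas markers summed to 2245 CPM and skeletal muscle markers to 536 CPM, against at most 12.5 and 3.04 CPM in the other 4 LPS libraries. Without it, 14 genes were called between LPS with EF and PF and LPS. The reads of Acat2 and its copy Acat2l1 may be split between them, so their counts are uncertain.

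In bile acid synthesis 1 gene was called, Cyp8b1 (chr8:130548418-130550388, rn6), the sterol hydroxylase that directs synthesis towards cholic acid. Its level was 460, 427, 370, 606 and 303 CPM in control 3 to 7 and 1180, 1296, 1455, 1583 and 1180 CPM in EF plus PF 1, 2, 3, 5 and 6. Every EF plus PF library lay above the highest control library, 606 CPM. Cyp8b1 rose by 1.63 ± 0.212 (SE) on the log2 scale, 3.09-fold, with an adjusted p of 3.49e-05, and the call held in all 19 alternatives. Cyp7a1, which catalyses the first and rate-limiting step of the classic route from cholesterol, varied widely, with 35.6 to 156 CPM in control and 99.3 to 501 CPM with EF plus PF, and its log2 fold change of 1.28 ± 0.522 was not called (adjusted p = 0.276). No other of the 26 bile acid genes tested was called, and the median of the list was 0.277. A fit of the 10 libraries alone called 2 members higher, and 1 without control 5. Cyp8b1 was at 933 to 1632 CPM with EF alone and 1174 to 1702 CPM with EF plus RD, and EF plus PF differed from these by 0.05 ± 0.207 (adjusted p = 0.960) and -0.12 ± 0.219 (adjusted p = 0.874). With LPS, EF and PF it was at 709 to 962 CPM, against 203 to 403 CPM with LPS, a log2 fold change of 1.39 ± 0.22 (adjusted p = 0.00227).

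The metallothionein genes Mt1 and Mt2A, whose small cysteine-rich products bind zinc and copper, lie next to each other and rose together. Mt1 was at 56.1, 57.1, 45.1, 88.8 and 34 CPM in control 3 to 7 and at 156, 152, 294, 277 and 246 CPM in EF plus PF 1, 2, 3, 5 and 6. Mt2A was at 14.9 to 54.5 CPM and 86.9 to 211 CPM. Neither gene overlapped between the groups, and control 6 was the highest control library for both. The log2 fold change of Mt1 was 2.0 ± 0.494 (SE, adjusted p = 0.0466) and that of Mt2A 2.14 ± 0.512 (adjusted p = 0.0369). Without control 5 both missed the threshold in the fit of all other libraries, with log2 fold changes of 1.93 (adjusted p = 0.0826) and 2.06 (0.0754). A fit of the control and EF plus PF libraries alone, without control 5, kept both calls (adjusted p = 0.0163 and 0.0473). The Mt1 call was lost in 10 of 19 alternatives and the Mt2A call in 8, among them fits without other single libraries. Of 22 zinc and iron genes tested, these 2 were called, with a list median of 0.138. Between LPS with EF and PF and LPS none of the 22 was called, and the highest log2 fold change of the list was 0.369. The test of the difference with and without LPS called none of the 22 either. Metallothionein genes have near-identical copies, so the counts of Mt1 and Mt2A are uncertain.

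Metallothionein genes are known to answer to metals through short metal response elements near their start. The promoter windows of both are shown because both genes moved together. They hold 300 bases each, from RefSeq (GRCr8), and the capitals mark every match to TGCNCNC on either strand.
Mt1, chr19:10832926-10833225, minus strand: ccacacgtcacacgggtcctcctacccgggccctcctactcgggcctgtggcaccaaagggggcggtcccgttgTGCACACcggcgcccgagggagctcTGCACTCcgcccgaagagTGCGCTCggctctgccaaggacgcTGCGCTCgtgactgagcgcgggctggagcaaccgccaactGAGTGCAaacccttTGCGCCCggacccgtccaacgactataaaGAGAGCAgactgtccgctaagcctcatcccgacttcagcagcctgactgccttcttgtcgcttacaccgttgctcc
Mt2A, chr19:10838659-10838958, minus strand: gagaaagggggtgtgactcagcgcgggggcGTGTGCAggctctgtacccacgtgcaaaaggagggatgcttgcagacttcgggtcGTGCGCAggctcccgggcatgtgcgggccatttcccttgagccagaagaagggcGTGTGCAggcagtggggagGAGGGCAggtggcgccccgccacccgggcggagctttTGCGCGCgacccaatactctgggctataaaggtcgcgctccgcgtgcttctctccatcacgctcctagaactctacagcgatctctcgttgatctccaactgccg
The Mt1 window held 7 matches and the Mt2A window 5. Among 33469 RefSeq promoter windows, 49.6% held at least 1 match, 0.108% held 7 or more and 0.669% held 5 or more. In the other groups of genes, GCGTG, the core of the element bound by AhR, was found on either strand in the windows of 6 of 8 AhR list genes, against 29.7% of all windows. TCACNCCAC, a form of the sterol response element, was found in 0 of 17 cholesterol synthesis genes, against 1.12%. Cyp1a1 and Sqle had no window and are not among these genes. A gene counted if any of its windows matched, whereas the percentages are shares of single windows, so the measures are unlike. These matches describe the letters in these windows.

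Among the falls was Crem (chr17:57021704-57090888, rn6), which encodes transcription factors that answer to cyclic AMP. It was at 101, 120, 111, 116 and 138 CPM in control 3 to 7 and at 69.4, 51.8, 50.9, 52.1 and 73.1 CPM in EF plus PF 1, 2, 3, 5 and 6. The groups did not overlap. Crem had a log2 fold change of -0.98 ± 0.17 (SE, adjusted p = 0.00224), and the call held in all 19 alternatives. Crem was at 44.4 to 82.7 CPM with EF alone and 51.7 to 71.8 CPM with EF plus RD. Tests of EF plus PF against these groups were not called (log2 fold changes -0.10 ± 0.169 and -0.06 ± 0.179, adjusted p = 0.863 and 0.930). With LPS its level was 35.4 to 48.6 CPM.

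Regulators of protein phosphatase 1, which takes part in the control of glycogen, were among the falls. Ppp1r3g, which brings the phosphatase to glycogen after feeding, was at 2.22 to 8.78 CPM in control and 0.519 to 1.74 CPM with EF plus PF (log2 fold change -2.37 ± 0.518 SE, adjusted p = 0.0206). Ppp1r2, an inhibitor of the phosphatase, fell from 38.7 to 45.9 CPM to 24.2 to 33.2 CPM (-0.54 ± 0.0911, adjusted p = 0.00187). The Ppp1r3g call was lost in 5 of 18 alternatives and the Ppp1r2 call in 1 of 19. Ppp1r3g was the only called member of 16 tested genes of glycolysis and glycogen (median -0.128), and none of 29 genes of gluconeogenesis and amino acid breakdown was called by edgeR (median -0.0375, 7 with an unadjusted p under 0.05), although a fit of the 10 libraries alone called 3 lower, with or without control 5.

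Among called genes with a symbol other than a locus number, the lowest log2 fold change was that of Macrod2, which removes ADP-ribose from proteins. Its level is below the 2 CPM required of a named gene, and it was picked after its values were seen. It was at 1.63, 0.690, 1.21, 1.03 and 1.35 CPM in control 3 to 7 and at 0.206, 0.132, 0.0472, 0.0450 and 0.329 CPM in EF plus PF 1, 2, 3, 5 and 6, so that the latter rest on few reads. The groups did not overlap, with a log2 fold change of -2.91 ± 0.453 (SE, adjusted p = 0.000427). Macrod2 was at 0.516 to 1.41 CPM with EF alone and 0.589 to 1.02 CPM with EF plus RD, both above all EF plus PF libraries. EF plus PF was lower than EF with a log2 fold change of -2.5 ± 0.458 (adjusted p = 0.0279, kept in 11 of 15 alternatives) and lower than EF plus RD with a log2 fold change of -2.46 ± 0.475 (adjusted p = 0.00984), the latter at -2.43 but not called without EF plus RD 1 (adjusted p = 0.113). With LPS the difference was in the same direction but was not called (-1.30 ± 0.452, adjusted p = 0.545).

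Smaller falls were called for other genes. Serp1, which protects new membrane proteins in the endoplasmic reticulum, fell from 265 to 376 CPM to 205 to 226 CPM (log2 fold change -0.48 ± 0.096 SE, adjusted p = 0.0089). Edem3, which trims the sugars of misfolded glycoproteins for their removal, fell from 81.5 to 102 CPM to 64.1 to 72.3 CPM (-0.41 ± 0.0778, adjusted p = 0.00534). Mgat2, a sugar transferase of the Golgi apparatus, fell by 0.57, Uap1, which makes the sugar donor UDP-N-acetylglucosamine, by 0.60, Suco, a membrane protein of the endoplasmic reticulum, by 0.66, and Ap3m1 and Ap3s1, subunits of the AP-3 vesicle adaptor, by 0.39 and 0.49 (adjusted p from 0.00831 to 0.0473). Uap1 and Suco overlapped between the groups, and without control 5 both had similar log2 fold changes, -0.59 and -0.68, that missed the threshold (adjusted p = 0.0526 and 0.0604). The Suco call was lost in 14 of 19 alternatives, those of Uap1 and Ap3s1 in 10 each, that of Mgat2 in 7 and that of Ap3m1 in 3. The calls of Serp1 and Edem3 held in all 19. Between EF plus PF and EF, Edem3 and Ap3m1 were called lower (log2 fold changes -0.35 and -0.37, adjusted p = 0.0463 and 0.0391), calls kept in 4 and 5 of 16 alternatives, and Serp1 was not (-0.35, adjusted p = 0.125). The list of endoplasmic reticulum stress genes had no member of 28 called by edgeR, with 24 below 0, 7 with an unadjusted p under 0.05 and a median of -0.227. Its chaperone Hspa5, also called BiP, was at -0.48 (adjusted p = 0.0987), and Xbp1, a transcription factor of the stress response, at -0.91 (adjusted p = 0.114). Without control 5 the median was -0.257, again with none called. A fit of the 10 libraries alone called 2 members lower, and 3 without control 5.

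Other named falls were those of Csrp1 and Pdlim1, LIM domain proteins of the actin cytoskeleton (log2 fold changes -0.54 and -0.54, adjusted p = 0.0327 and 0.0165), Akap2, an anchor of protein kinase A (-0.54, adjusted p = 0.0497), Pp2d1 (-0.50, 0.0353), Eed, a subunit of the Polycomb repressor (-0.40, 0.0223, and -0.36 with 0.0604 without control 5), Chic2 (-0.40, 0.0247) and Bzw1, a regulator of translation (-0.27, 0.00723). Akap2 overlapped between the groups, at 32.1 to 49.1 CPM in control and 23.7 to 37.3 CPM with EF plus PF. Its call was lost in 12 of 19 alternatives. The calls of Csrp1, Pp2d1 and Chic2 were each lost in 10 of 19, that of Eed in 8, Pdlim1 in 4 and Bzw1 in 3. Stellate cell and fibrosis markers, which include cytoskeletal genes, summed to 582 to 963 CPM in control and 497 to 638 CPM with EF plus PF. None of the 17 tested members of this list was called by edgeR (2 with an unadjusted p under 0.05, median -0.425, and -0.179 without control 5). In whole liver RNA, fewer cells of a type and less RNA per cell cannot be told apart, and the part of these cells in the falls was not tested.

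Among the remaining rises, Ackr2, a decoy receptor that removes inflammatory chemokines, was at 1.57 to 3.09 CPM in control and 5.91 to 8.28 CPM with EF plus PF (log2 fold change 1.48 ± 0.204 SE, adjusted p = 8.34e-05). Slc13a3, a carrier of dicarboxylates such as succinate, rose from 19.7 to 29.1 CPM to 47.3 to 66.4 CPM (1.10 ± 0.159, adjusted p = 0.000205). Both held in all 19 alternatives. Cemip, which takes part in hyaluronan breakdown, rose by 1.46 ± 0.311 (adjusted p = 0.0165) from a control mean of 1.16 CPM, and Fam198a by 1.96 ± 0.372 (adjusted p = 0.00576) from 0.548 CPM. ATP8, a mitochondrially encoded subunit of ATP synthase, rose by 0.47 ± 0.111 (adjusted p = 0.0369, and 0.0532 without control 5). Its call was lost in 12 of 19 alternatives. Of the 13 mitochondrially encoded genes 12 lay above 0, with a median of 0.219 and no other call.

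Lists without a called member differed in how their members were spread. Of 31 interferon-stimulated genes 26 lay below 0, with a median of -0.302, and 9 had an unadjusted p under 0.05, Oasl among them at -1.22 (adjusted p = 0.112). A fit of the 10 libraries alone called 2 of them lower, with or without control 5. Between LPS with EF and PF and LPS, 10 of 31 lay below 0 and the median was 0.122. Of 19 heat shock genes 16 lay below 0 (median -0.205, 4 with an unadjusted p under 0.05), and of 19 circadian clock genes 14 (median -0.324, 1 such gene). Acute-phase proteins (23 tested, median -0.0246), complement and coagulation (32, median 0.0173), lipoproteins (15, median 0.0144), proliferation (32, median -0.0407) and hepatocyte markers (18, median 0.000445) were centred near 0, with 0 to 3 members of each at an unadjusted p under 0.05. Of 72 ribosomal protein genes 64 lay above 0 (median 0.199), and 1, Rps26, was called. For comparison, 46.2% of all genes lay above 0. The genes of a list can vary together between livers, so these spreads are descriptions.

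**Figure D5:**
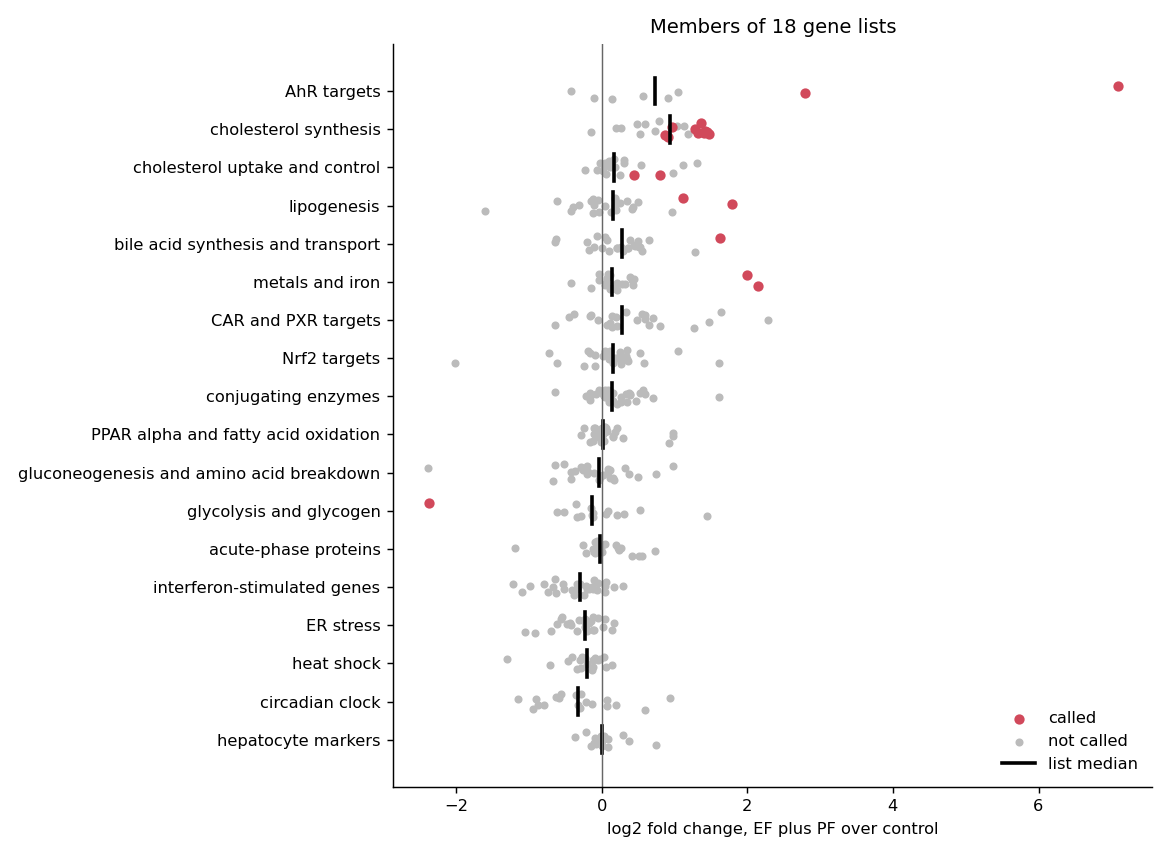
Log2 fold change, EF plus PF over control (x axis), of the tested members of 18 gene lists (1 point per gene, red where called) with the list median (black bar). The cholesterol synthesis list has the highest median, 0.94, with 10 of 22 members called, and 2 AhR targets lie apart from their list at 7.09 and 2.79.

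The reference groups place these changes. EF against control, which shares the 5 control libraries, gave 136 called genes (0.92%), and EF plus RD against control 225 (1.52%). Of the 136, 3 were exocrine pancreas markers, called lower in a comparison that holds control 5. Of the 225, 6 were skeletal muscle markers, called higher in a comparison that holds EF plus RD 1. Neither count was taken without these libraries. The log2 fold changes of Cyp8b1 were 1.58, 1.75 and 1.63 with EF, EF plus RD and EF plus PF, those of Crem -0.88, -0.92 and -0.98, those of Mt1 2.05, 2.21 and 2.0, those of Hmgcs1 1.89, 0.86 and 1.42, and those of Cyp1a1 1.64, 2.45 and 7.09. For Hmgcs1 the direct test between EF plus PF and EF gave -0.47 ± 0.259 (adjusted p = 0.476), and that between EF plus PF and EF plus RD gave 0.55 ± 0.277 (adjusted p = 0.402). Between EF plus PF and EF, 24 genes (0.162%) were called, 10 higher and 14 lower. Besides Cyp1a1, Macrod2, Edem3 and Ap3m1 they included Tomm40l, a channel protein of the outer mitochondrial membrane (log2 fold change 0.78 ± 0.147, adjusted p = 0.0279), and Traf1, a signalling adaptor of tumour necrosis factor receptors (1.05 ± 0.229, adjusted p = 0.0444), both chosen after their values were seen. Cyp1a1 was the only 1 of the 24 called in all alternatives, and leaving out 1 library left between 1 (without EF 1) and 73 calls (without EF 4). Between EF plus PF and EF plus RD, 105 genes (0.71%) were called, of which 88 were lower and 6 were skeletal muscle markers of 7 tested. Without EF plus RD 1 the count was 1, and that gene was Cyp1a1.

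The animals with LPS give a second reading from other livers. Of the 92 genes called without LPS, 4 were called between LPS with EF and PF and LPS alone: Cyp1a1, Cyp1a2, Cyp8b1 and LOC102551973. They are 4.35% of the 92 and 66.7% of the 6 calls with LPS. The remaining 2 calls with LPS were lower, Cyp2c11, the main male-specific P450 of rat liver, by 2.11 on the log2 scale (log2 fold change -2.11 ± 0.403, adjusted p = 0.0227), and Hdgf, a growth factor (-0.40 ± 0.0768, adjusted p = 0.0227). With LPS the calls of Cyp1a1, Cyp1a2 and Cyp8b1 held in all 15 alternatives. Those of LOC102551973, Cyp2c11 and Hdgf held in 10, 9 and 7 of the 15. Of the 66 genes higher without LPS 44 (66.7%) lay above 0 with LPS, where 48.8% of all genes did, with a median of 0.121. Of the 26 lower genes 22 (84.6%) lay below 0 with LPS, where 51.2% of all genes did, with a median of -0.0971.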

How the data were processed

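Liver RNA of 38 rats was sequenced. The authors deposited counts of read pairs per gene for 31038 gene names, made with featureCounts 2.0.6 on an rn6 RefSeq annotation with no strand setting, per the file headers, so a gene and an overlapping antisense gene cannot be told apart. Per the submitters' processing notes, STAR, RSEM and the build mRatBN7.2 were also used, and positions here are those of the count table. The authors' deposited TPM values equal length-scaled counts within 0.135% for values of 1 TPM or more, and were used only to compare levels between genes. Libraries held 19716622 to 35835012 read pairs, with no molecular identifiers described, so precision covers counting error only in part.

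All 38 libraries were fitted together with edgeR 4.0.16 in R 4.3.3 (filterByExpr with a minimum count of 10 and a minimum total of 15, TMM scaling, 1 mean per group, two-sided quasi-likelihood tests, adjusted within each comparison). The procedure was tested on simulated data. CPM uses TMM-scaled library sizes, and SE is that of the log2 fold change. Samples of a group are biological replicates, per the design text. Genes named in the text are those called at 2 CPM or more (mean of the higher group) under a symbol other than a locus number: the 15 with the largest rise and the 15 with the largest fall, the 5 with the smallest p each way, called list members, and uncalled genes that define a list. The comparison, the lists and the tests were chosen with earlier results of these data known. Lists are described by counts and medians only, and no list was tested. Alternatives were RLE and total count scaling, other filters, DESeq2 1.42.0, limma-voom (limma 3.58.1), fewer libraries and a replicate block. No columns were left out. Of the promoter sequences from RefSeq, 17 of 22 cholesterol synthesis genes, 8 of 10 AhR list genes and both metallothionein genes were matched by symbol. Values of some cholesterol genes are not reported here, though counts over lists include them.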

Additional observations from a re-analysis of the deposited data

Results flagged for a closer look

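In control 5, marker sums far from the other 4 control libraries were found for exocrine pancreas (3890 CPM, others up to 15.2), endocrine pancreas (0.326 CPM, others 0), cholangiocytes (146 CPM, others up to 43.5), erythroid cells (340 CPM, others up to 61.3) and skeletal muscle (3.77 CPM, others up to 2). The hepatocyte marker sum was 241000 CPM in control 7, above the other controls. Single libraries also stood apart for Mgat2 (55.5 CPM in EF plus PF 6, others up to 49.5), Pdlim1 (23.7 CPM in control 4, others from 29.6), Akap2 (37.3 CPM in EF plus PF 1, others up to 27.3), Ap3s1 (20.7 CPM in control 3, others up to 14.7), Eed (9.06 CPM in EF plus PF 3, others from 9.76) and Acss2 (45.5 CPM in control 4, others from 69.1). These are 12 of 108 groups of values examined, and chance flags about 1 in 20.

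The response to EF plus PF was lower with LPS than without, by the test of the difference, for Mvd (-2.26 on the log2 scale), Msmo1 (-2.22), Mmab (-1.42), Mvk (-1.42), Srebf2 (-0.86), Sqle (-2.02), LOC102550763 (-1.98), Pmvk (-1.39), Hmgcs1 (-1.95), Acat2l1 (-2.03) and Acat2 (-2.48). Adjusted p was from 0.0257 to 0.0379 (edgeR). These calls were fragile: each was lost in 9 to 17 of 25 alternatives, and no gene was called with a replicate block.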

How the results depend on the processing

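All 42 named genes kept their direction in every alternative that gave a value, and 16 (13 higher, 3 lower) kept their call in each. Of the 42, 33 were called without control 5. Leaving out each library in turn gave 39 to 104 calls for EF plus PF against control (30 to 72 higher, 9 to 32 lower), 1 to 73 against EF, 1 to 272 against EF plus RD, 3 to 14 between LPS with EF and PF and LPS, and 0 to 25 for the difference. For EF plus PF against control, no filter on low counts gave 61 calls (14 lower), DESeq2 gave 246 (133 higher, 113 lower), total counts 16 lower, and the fit of the 10 libraries alone 109, of which 58 were among the 92. Against EF the counts were 4 with total counts, 5 with no filter and 173 with DESeq2. Against EF plus RD they were 255 with no filter, 224 with DESeq2 and 8 with limma-voom. DESeq2 gave 32 calls between LPS with EF and PF and LPS, and 32 for the difference. With total counts 80% of the calls were higher, against 71.7%. The cause of these shifts was not tested.

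Numbers 3, 5 and 6 occur in both groups. The correlation of same-numbered libraries' deviations from their group means was 0.138, 0.134 and -0.107, and 4 of 6 libraries correlated best with their own number, a hint from the data. As the labels tie no numbers together and 1 correlation lay below 0, the libraries were not treated as paired. A replicate block gave 134 calls for EF plus PF against control (52 lower), 8 against EF, 13 against EF plus RD and 0 for the difference (719 of 14786 genes had an unadjusted p under 0.05 without the block). With 5 libraries a group, genes near 1 CPM or with large spread between livers, such as Cyp7a1, limit what could be called.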
